A study of Mus musculus with 20 samples.

Results

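The comparison described here is the difference between the response of the descending thoracic aorta to β-aminopropionitrile (BAPN) and the response of the ascending aorta. It was formed by rule from every library of the series, 20 of 20, as BAPN minus water in the descending aorta less BAPN minus water in the ascending aorta. Bulk RNA was sequenced from the aortas of C57BL/6J mice that had either water or BAPN during 1 week. The 4 groups, each of 5 libraries, were ascending water, ascending BAPN, descending water and descending BAPN. The treatment stands in each label, and the region was read from the letters A and D in the titles beside the series' own description. Dose, age and sex are not stated there, nor is it stated whether each library is a separate animal or whether the 2 regions came from the same animals, so the p-values measure only the spread between these samples, which may be technical.

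BAPN blocks the lysyl oxidases, copper enzymes that oxidise lysine residues in elastin and collagen so that the fibres can cross-link. Loss of these cross-links weakens the elastic lamellae, and BAPN is used in young rodents to bring about aortic aneurysm and dissection. Smooth muscle of the ascending aorta arises from the neural crest and from the heart field, and that of the descending aorta from paraxial mesoderm, so the same drug meets cells of different origin. A difference of effects is written on the log2 scale: it is positive when the ratio of BAPN to water was higher in the descending aorta, negative when that ratio was higher in the ascending aorta, and 0 when the ratios were equal. A transcript may therefore change strongly under BAPN and still have a difference of 0.

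Libraries held 15.7 M to 23.3 M counts. The labelled tissue was borne out by smooth muscle actin, Acta2, which was at least 10833 CPM (counts-per-million, scaled to library size) in every library, and the regions by the Hox genes, which mark position along the body axis: their summed level was 67.8 to 91.7 CPM in ascending and 231.7 to 310.2 CPM in descending libraries. Levels of 33 pseudogenes parted the libraries in a way the labels do not record. A set with higher levels held ascending BAPN 1 to 5, ascending water 4 and 5, and descending water 1, 2 and 5. A set with lower levels held the remaining 10 libraries, among them descending BAPN 1 to 5. The BAPN libraries of the regions thus fall in different sets, and no set holds all 4 groups, so the difference of effects could not be taken inside a set. It was refitted with the set as a term, and with the ascending effect taken in the higher set and the descending effect in the lower set (2 water and 5 BAPN libraries in each region). Where the set term moved a printed difference by over 1.5 times or turned its sign, its value stands beside it, and what parts the sets was not tested. Since the sets were read from pseudogene levels, a set term removes differences in such pseudogenes by construction.

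By edgeR's quasi-likelihood test on all 20 libraries, no gene passed for a difference between the ascending and the descending response to BAPN. Of 15543 genes tested in edgeR, 0 (0%) had an adjusted p under 0.05, and the smallest adjusted p, 0.216, was shared by 40 genes. At an unadjusted p under 0.05 there were 1070 genes (6.88%), of which 552 (3.55%) had a positive and 518 (3.33%) a negative difference. The fit with a set term called 0 genes and left 877 (5.64%) under the unadjusted threshold, and with each effect taken inside its set these counts were 0 and 938 of 16089 (5.83%). limma-voom also called 0 (1046 unadjusted), whereas DESeq2 called 14, of which 1 was positive and 13 negative, and 10 of those 14 were pseudogenes. Among the 15543 genes tested 401 were pseudogenes. Without a filter on low counts edgeR called 41 genes, 20 of them pseudogenes. Leaving out descending water 4 gave 16 calls, 14 of them pseudogenes, and leaving out descending BAPN 5 gave 1 call. A fit that paired the regions by replicate number within treatment called 20 genes, 10 of them pseudogenes. Fndc5, Crim1 and Rasl10b were among them, and the labels do not state such a pairing.

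The intervals say how large a difference these libraries leave room for. Among the 11037 genes that averaged 5 CPM or more, the 95% interval of the difference lay wholly inside a 1.5-fold change in either direction for 10219 (92.6%), and inside a 2-fold change for 10889 (98.7%). Over all 15543 genes the 1.5-fold share was 67.8%. The median standard error (SE) of the difference was 0.12 on the log2 scale, against 0.087 and 0.088 for the effect in the ascending and in the descending aorta alone, since a difference of differences carries the error of all 4 groups. That median SE was 0.16 with the set term.

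Within each region BAPN did change many transcripts. In the ascending aorta 986 genes (6.34%) were called, 534 higher (3.44%) and 452 lower (2.91%) under BAPN, and in the descending aorta 1667 (10.7%), 961 higher (6.18%) and 706 lower (4.54%). Upper-quartile scaling tilts the balance to 449 higher and 529 lower in the ascending and to 706 and 874 in the descending aorta, and without a filter on low counts the ascending split was 434 to 517. Called in both regions were 628 genes, which is 63.7% of the ascending and 37.7% of the descending calls. Of these, 391 were higher in both, 237 were lower in both, and 0 had opposite signs. The interval of the difference lay inside 1.5-fold for 566 of the 628 (90.1%) and inside 2-fold for 613 (97.6%). These 2 regional comparisons share no library, but the regions may share animals, which the labels do not state, so they may not be independent. Over all 15543 genes, called or not, the effects had the same sign for 67.2%, and for 60.3% with the set term. Their correlation across the 11037 genes of 5 CPM or more was 0.612, and 0.479 with the set term, as a description across genes that are not independent replicates. Shared calls numbered 317 with the set term and 208 inside the sets, again with 0 of opposite sign. Opposite signs did appear for 6 genes without a filter on low counts, 5 of them pseudogenes and the other the heart muscle gene Tnni3, for 2 pseudogenes under DESeq2, and for at most 4 genes on leaving out a library (ascending water 5). The unequal number of calls in the regions does not itself show unequal responses: 358 genes were called only in the ascending and 1039 only in the descending aorta, and the difference passed the adjusted test for 0 of them.

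**Figure D1:**
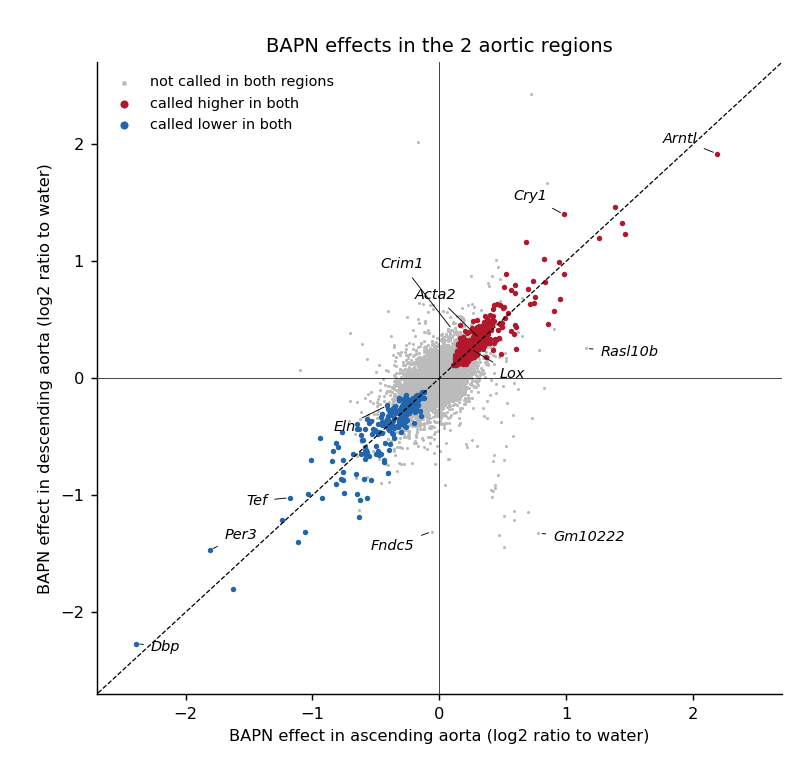
Log2 ratio of BAPN to water in the ascending aorta (horizontal axis) and the descending aorta (vertical axis) for the 11037 genes that averaged 5 CPM or more. Red and blue points are genes called higher and lower in both regions, the dashed line marks equal effects, and no called point lies in the quadrants of opposite sign, while Fndc5 and Gm10222 lie well below the line.

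Lox, the drug's own target, moved by nearly the same amount in each region. Lox encodes the main lysyl oxidase of the vessel wall (ENSMUSG00000024529, chr18:52516067-52529867 on GRCm38, minus strand). In the ascending aorta it stood at 680, 772, 795, 709 and 708 CPM in water libraries 1 to 5 and at 833, 915, 906, 861 and 834 CPM in BAPN libraries 1 to 5. Descending water libraries held 1043, 1198, 1174, 1094 and 1225 CPM and descending BAPN libraries 1301, 1365, 1286, 1462 and 1414 CPM. Every BAPN library lay above every water library of its own region, and the descending libraries lay above the ascending ones throughout. Lox rose by 0.25 on the log2 scale in the ascending (SE 0.05, adjusted p = 0.00329) and by 0.25 in the descending aorta (SE 0.05, adjusted p = 0.00178). The difference of these effects was 0.004 (95% interval -0.14 to 0.15, n = 5 libraries per group, adjusted p = 0.997 in edgeR), and with the set term -0.03 (interval -0.22 to 0.17).

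Of the 5 lysyl oxidase genes tested, 1 (20%, beside 6.88% of all genes) had an unadjusted p under 0.05. It was Loxl1, the oxidase tied to elastin assembly, with effects of -0.15 in the ascending and -0.01 in the descending aorta (difference 0.15, SE 0.07, unadjusted p = 0.032, adjusted p = 0.676), and with the set term its difference was -0.02. Loxl2, which acts on the basement membrane collagen type IV, had a difference of -0.04 (95% interval -0.20 to 0.12). It was -0.20 with the set term (interval -0.39 to -0.01, unadjusted p = 0.0402, adjusted p = 0.872), where Loxl2 was the member under the unadjusted threshold. Loxl3 was at -0.0001 (interval -0.13 to 0.13), or -0.07 with the set term, and Loxl4 at -0.05 (interval -0.35 to 0.25), or 0.04. Without the set term the interval stayed within 1.5-fold for all 5 members of the family.

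Smooth muscle actin and its regulator gave a similar picture. Acta2 libraries 1 to 5 read 11488, 12192, 11296, 11361 and 10924 CPM under water and 13444, 14227, 14701, 15175 and 13812 CPM under BAPN in the ascending aorta. Descending libraries read 10833, 11720, 12179, 12255 and 12640 CPM under water and 14454, 14314, 15147, 16033 and 15472 CPM under BAPN. The treatment groups did not overlap in either region, and the regions did overlap. Acta2 rose by 0.32 (SE 0.05, adjusted p = 5.39e-05) and by 0.34 (SE 0.05, adjusted p = 1.77e-05), with a difference of 0.02 (95% interval -0.11 to 0.15), or -0.05 with the set term (interval -0.22 to 0.11). Myocd, the coactivator of the contractile genes, rose by 0.54 and 0.56, from 93.8 to 137 CPM in the ascending and from 97.1 to 143 CPM in the descending aorta, with a difference of 0.01 (interval -0.22 to 0.25), or 0.09 with the set term (interval -0.23 to 0.41). Hspa5, the main chaperone of the endoplasmic reticulum, rose by 0.33 in each region (difference 0.003, interval -0.11 to 0.12, and 0.05 with the set term). These 3 genes were chosen after their values were seen.

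The largest shared rise and fall, ranked by the mean of the 2 regional effects and so chosen after their values were seen, belonged to the circadian clock genes Arntl and Dbp. Ranked were genes called in both regions that averaged 5 CPM or more, without predicted genes, Rik clones and pseudogenes by symbol. In the clock the activators BMAL1 (Arntl) and CLOCK bind E-boxes and switch on period and cryptochrome genes, whose products hold the activators back, while factors such as DBP act at D-boxes. Collection times are not stated in the labels. The upstream 250 bases of 3 clock genes called in both regions are shown because they hold these elements, in the strand of the gene, with RefSeq starts on GRCm38.p6. Capitals mark the E-box CACGTG in Ciart (chr3:95882229-95882478, minus strand) and in Cry1 (chr10:85185055-85185304, minus strand), and the D-box TTATGTAA in Per3 (chr4:151044666-151044915, minus strand).
Ciart: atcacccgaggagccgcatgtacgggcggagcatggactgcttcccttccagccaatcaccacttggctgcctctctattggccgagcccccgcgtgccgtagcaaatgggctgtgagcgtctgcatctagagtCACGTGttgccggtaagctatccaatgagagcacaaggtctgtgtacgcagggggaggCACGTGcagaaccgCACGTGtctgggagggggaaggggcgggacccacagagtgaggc
Cry1: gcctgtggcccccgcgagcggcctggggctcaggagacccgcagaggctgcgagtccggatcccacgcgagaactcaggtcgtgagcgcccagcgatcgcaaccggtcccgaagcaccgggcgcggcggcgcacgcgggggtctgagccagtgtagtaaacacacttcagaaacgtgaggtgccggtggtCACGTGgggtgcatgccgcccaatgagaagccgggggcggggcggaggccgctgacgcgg
Per3: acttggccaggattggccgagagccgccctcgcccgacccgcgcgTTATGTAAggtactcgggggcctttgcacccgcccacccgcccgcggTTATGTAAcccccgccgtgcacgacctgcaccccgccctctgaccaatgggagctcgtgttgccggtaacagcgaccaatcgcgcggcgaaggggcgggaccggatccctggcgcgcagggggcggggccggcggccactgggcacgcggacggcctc
Ciart held the E-box 3 times, with first bases 116, 58 and 44 bases before the start, Cry1 once, 60 bases before it, and Per3 the D-box at 205 and 158 bases before it. Both strands were searched. Among 11404 tested genes with such a window, 9.56% held an E-box and 0.658% a D-box by these letters, so a match describes the sequence and is not a measured binding site.

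Arntl, the activator, came from a low level under water. Its ascending libraries 1 to 5 held 7.18, 4.55, 11.2, 8.72 and 7.46 CPM under water and 42.1, 40.7, 34.5, 34 and 28.7 CPM under BAPN. Its descending libraries held 10.3, 8.68, 12, 9.72 and 7.06 CPM under water and 45.6, 32.1, 35.2, 32.9 and 36 CPM under BAPN. In both regions the lowest BAPN library was more than 2-fold above the highest water library. Arntl rose by 2.19 in the ascending (SE 0.16, adjusted p = 2.02e-09) and by 1.92 in the descending aorta (SE 0.16, adjusted p = 1.33e-08), and the difference, -0.27, had a 95% interval of -0.73 to 0.20. It was -0.42 with the set term (interval -1.07 to 0.22).

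Dbp is an output factor of the clock. Under water it was 204, 184, 151, 163 and 155 CPM in ascending libraries 1 to 5, and 154, 130, 129, 155 and 133 CPM in the descending ones. Under BAPN it was 22.7, 31.1, 40.2, 29.6 and 40.1 CPM in ascending and 19.5, 24.9, 33.2, 27.7 and 39.6 CPM in descending libraries. The treatments were far apart, and the regions overlapped under each. Dbp fell by 2.39 and by 2.27 on the log2 scale, a difference of 0.12 (95% interval -0.29 to 0.54), or -0.0043 with the set term. Its relatives Hlf, which fell by 1.12 and 1.40, and Tef, which fell by 1.18 and 1.02, had differences of -0.28 (interval -0.55 to -0.01, adjusted p = 0.694) and 0.16 (interval -0.08 to 0.39). Hlf was at -0.05 with the set term (interval -0.37 to 0.26).

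Among the genes whose promoters are shown, the repressor Cry1 was 4.48, 4.33, 4.52, 4.83 and 5.04 CPM in ascending water libraries 1 to 5 and 9.12, 9.35, 12, 8.61 and 6.60 CPM in ascending BAPN libraries. Descending libraries held 5.07, 4.06, 4.35, 4.35 and 4.17 CPM under water and 16.3, 10.7, 12.3, 10.9 and 8.19 CPM under BAPN. The water groups were alike in level, and all BAPN libraries were higher, with descending BAPN 1 the highest. Cry1 rose by 0.98 (SE 0.15) and by 1.40 (SE 0.16), with a difference of 0.42 (95% interval -0.03 to 0.87, adjusted p = 0.751).

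Per3, a period gene, was 59.5, 52.1, 48.3, 58.5 and 65.3 CPM in ascending water libraries 1 to 5 and 12.8, 14.5, 20.7, 15.3 and 17.6 CPM in ascending BAPN libraries. The descending libraries held 50.7, 47.1, 38.9, 49.3 and 54.1 CPM under water and 13.5, 16.9, 20.2, 16.1 and 19.9 CPM under BAPN. The treatments did not overlap in either region. Per3 fell by 1.81 in the ascending and by 1.47 in the descending aorta (difference 0.34, SE 0.16, adjusted p = 0.726), and the difference with the set term was 0.59 (interval 0.18 to 1.00, adjusted p = 0.819).

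Ciart, a repressor of the CLOCK and BMAL1 pair that is transcribed at a low level, had the largest difference among the 15 core clock genes. In the ascending aorta it was 3.69, 3.89, 1.2, 3.57 and 3.41 CPM under water and 0.378, 0.733, 0.732, 0.441 and 0.747 CPM under BAPN. In the descending aorta it was 1.89, 1.60, 1.29, 1.66 and 1.60 CPM under water and 0.897, 0.656, 0.762, 0.803 and 0.286 CPM under BAPN. The BAPN levels of the regions overlapped, and 4 of the 5 ascending water libraries lay above all descending water libraries. The effects were -2.36 and -1.25, a difference of 1.11 with a wide interval (0.17 to 2.05, adjusted p = 0.606). The descending effect of Ciart was called from all libraries (adjusted p = 0.0113) and not with the set term (adjusted p = 0.063) or inside the sets (adjusted p = 0.088).

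Rora, a nuclear receptor that activates Arntl, was the clock gene with the smallest p for the difference. Its ascending libraries held 88.9, 91, 91.8, 91.6 and 94.8 CPM under water and 100, 105, 108, 107 and 92.8 CPM under BAPN. Its descending libraries held 93, 103, 98.1, 98.7 and 111 CPM under water and 139, 134, 129, 147 and 141 CPM under BAPN. The ascending groups overlapped through BAPN library 5, whereas every descending BAPN library exceeded all others. The effects were 0.16 and 0.45, and the difference, 0.29 (SE 0.07, interval 0.15 to 0.43, unadjusted p = 0.000308), did not pass adjustment (adjusted p = 0.216), nor did it with the set term (0.35, adjusted p = 0.791). Clock, the partner of Arntl, rose in both regions by 0.60 and 0.44 (difference -0.17, adjusted p = 0.612).

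Of 15 core clock genes 5 were called higher and 7 lower in each region, and the median effects were -0.461 in the ascending and -0.431 in the descending aorta. Over all genes 3.44% were called higher and 2.91% lower in the ascending aorta, and 6.18% and 4.54% in the descending aorta. The difference had an unadjusted p under 0.05 for 3 of the 15 on the positive and 1 on the negative side (26.7%, beside 6.88% of all genes), with a median difference of 0.054 (-0.003 with the set term) beside 0.007 over all genes. Of 16 clock output genes 1 was under that threshold, on the negative side (median -0.026, and 0.019 with the set term). Of 20 glucocorticoid targets, a group that follows the adrenal hormone and its daily rhythm, 0 were (median 0.004, and 0.174 with the set term). Fkbp5, the co-chaperone that marks glucocorticoid action, rose by 0.98 and 0.89 (difference -0.09, interval -0.38 to 0.20, and -0.0007 with the set term).

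**Figure D2:**
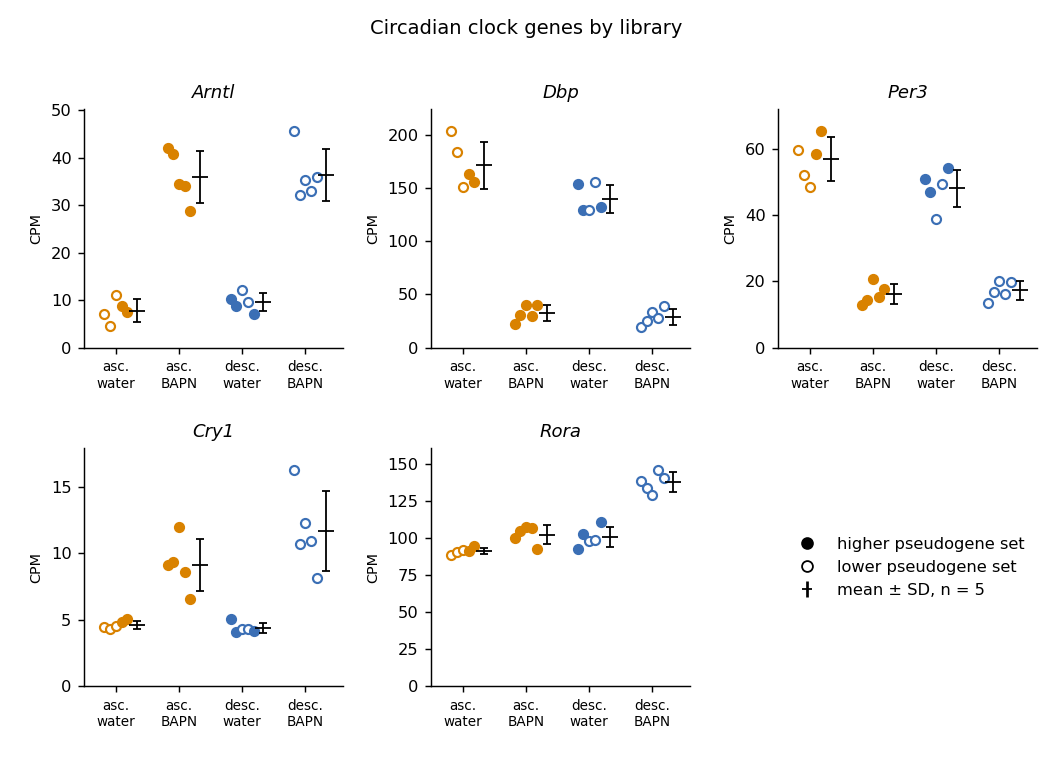
CPM of 5 clock genes in each of the 20 libraries, by region and treatment, with the mean and SD of each group of 5 as a black bar. Filled points are libraries of the set with higher pseudogene levels; Arntl and Cry1 are higher and Dbp and Per3 lower under BAPN in both regions, and Rora stands highest in the descending BAPN libraries.

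The 5 genes with the smallest p for the difference were a secreted signal precursor, a growth factor antagonist and 3 pseudogenes. Each had an adjusted p of 0.216 in edgeR, and all 5 passed under DESeq2, with adjusted p from 0.00132 to 0.0399. Their levels are given by library so that they can be read beside the library sets, which were themselves read from pseudogenes, Rpl10a-ps1 among them.

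Fndc5 encodes the membrane protein from which irisin is cut (ENSMUSG00000001334, chr4:129136999-129144593, plus strand). Its ascending libraries 1 to 5 held 19.4, 11.9, 13.8, 11.7 and 17.3 CPM under water and 14.5, 12.2, 13.4, 17.4 and 13.7 CPM under BAPN. Its descending libraries held 6.65, 7.82, 10.6, 6.60 and 5.71 CPM under water and 2.58, 3.75, 2.23, 3.21 and 3.28 CPM under BAPN. The ascending groups overlapped fully, and each descending BAPN library lay below each descending water library. The effect was -0.06 (SE 0.15, adjusted p = 0.883) in the ascending aorta, and in the descending aorta Fndc5 fell by 1.31 (SE 0.19, adjusted p = 3.59e-05), from 7.47 ± 1.89 to 3.01 ± 0.61 CPM (SD, n = 5). The difference was -1.25 (SE 0.24, 95% interval -1.75 to -0.76, unadjusted p = 2.07e-05). It was -1.47 with the set term (interval -2.09 to -0.84, adjusted p = 0.411) and -1.48 inside the sets (adjusted p = 0.311). The adjusted p was 0.00132 under DESeq2, 3.2e-05 without a filter on low counts and 0.0486 without descending water 4, so whether Fndc5 is called depends on the setting. In bulk RNA fewer cells of a type and less RNA per cell cannot be told apart.

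Crim1 encodes a membrane protein that binds bone morphogenetic proteins (ENSMUSG00000024074, chr17:78200248-78376592, plus strand). It was 150, 167, 171, 187 and 161 CPM in ascending water libraries 1 to 5 and 179, 186, 178, 184 and 170 CPM in ascending BAPN libraries. It was 113, 111, 107, 114 and 114 CPM in descending water and 144, 155, 155, 152 and 141 CPM in descending BAPN libraries. The ascending groups overlapped, and the descending groups were well apart, with the descending water libraries the lowest of all. The effect was 0.10 in the ascending aorta (SE 0.05, adjusted p = 0.211), and in the descending aorta Crim1 rose by 0.41 (SE 0.05, adjusted p = 2.21e-06). The difference was 0.31 (SE 0.07, interval 0.17 to 0.45, unadjusted p = 9.53e-05), 0.39 with the set term (interval 0.21 to 0.57, adjusted p = 0.54), and it passed under DESeq2 (adjusted p = 0.0303).

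Gm10222 is an unprocessed pseudogene (ENSMUSG00000067736, chr1:24612407-24612700, minus strand). In the ascending aorta it was 4.78, 4.72, 3.03, 10.5 and 9.34 CPM under water and 10.1, 11, 9.25, 11.8 and 13.1 CPM under BAPN. In the descending aorta it was 13.3, 13.7, 4.25, 4.67 and 13.1 CPM under water and 3.48, 3.46, 4.34, 3.96 and 4.19 CPM under BAPN. The 10 libraries of the higher set all held 9.25 CPM or more, and the 10 of the lower set all held under 5 CPM, whatever the treatment. The difference was -2.11 (SE 0.43) from all libraries and -0.39 with the set term (interval -0.86 to 0.09, unadjusted p = 0.11).

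Rpl10a-ps1, a processed copy of a ribosomal protein gene (ENSMUSG00000084416, chr1:64993951-64994604, minus strand), was 3.49, 2, 1.7, 4.31 and 3.71 CPM in ascending water and 4.21, 4.64, 3.76, 5.08 and 5.10 CPM in ascending BAPN libraries. It was 4.15, 5.17, 2.10, 2.58 and 4.72 CPM in descending water and 2.02, 2.03, 1.7, 1.66 and 1.29 CPM in descending BAPN libraries. The higher set again held the higher values in every group that it shares with the lower set. Its difference went from -1.69 (SE 0.35) to -0.63 with the set term (interval -1.32 to 0.05).

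Gm10221, another processed pseudogene (ENSMUSG00000067719, chr5:24581554-24581862, minus strand), was 0.448, 0.889, 0.580, 1.05 and 1.19 CPM in ascending water and 1.35, 1.28, 1.1, 1.71 and 1.18 CPM in ascending BAPN libraries. It was 1.38, 1.85, 0.645, 0.698 and 1.60 CPM in descending water and 0.505, 0.298, 0.469, 0.631 and 0.190 CPM in descending BAPN libraries. Water libraries of each region again parted by set. Its difference was -2.23 (SE 0.49), and -0.97 with the set term (interval -2.03 to 0.09).

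Of the 50 genes with the smallest p, 22 were pseudogenes, beside 401 of all 15543 genes tested, and all 22 differences were negative. How these differences fare with the set term tests nothing, since the sets were built from such levels. A pseudogene can share reads with its parent gene, and how such reads were counted is not given in the sources used here, so these values are uncertain. Rasl10b, a small GTPase gene named after its values were seen, was among the other genes (ENSMUSG00000020684, chr11:83409137-83421039, plus strand). It was 5.03, 6.05, 6.01, 6.09 and 6.57 CPM in ascending water and 12.9, 12.4, 16.2, 15 and 9.58 CPM in ascending BAPN libraries. In the descending aorta it was 9.32, 10.5, 10.8, 12.2 and 14.3 CPM under water and 11.8, 12.9, 18.6, 14 and 10.9 CPM under BAPN. The ascending groups did not overlap, and the descending groups did. Rasl10b rose by 1.16 in the ascending aorta (SE 0.15, adjusted p = 1.33e-05), the descending effect was 0.26 (adjusted p = 0.282), and the difference was -0.90 (SE 0.20, interval -1.32 to -0.48, adjusted p = 0.216 in edgeR and 0.0296 in DESeq2). It was -0.83 with the set term (adjusted p = 0.805).

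**Figure D3:**
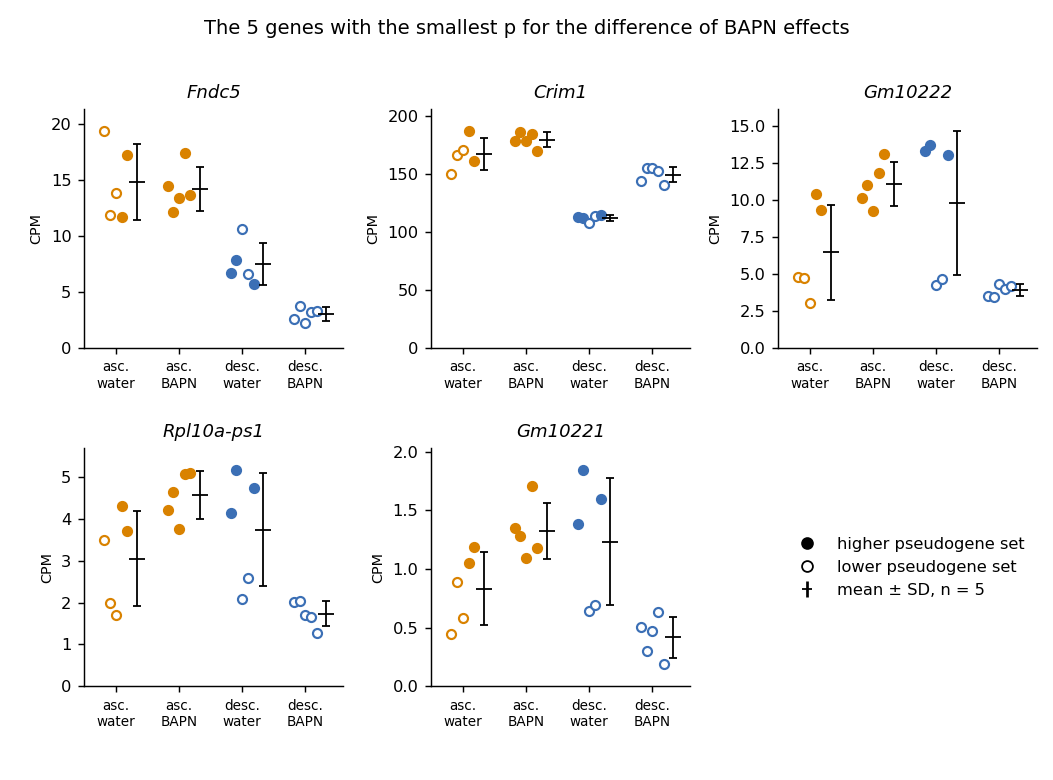
CPM of the 5 genes with the smallest p in each of the 20 libraries, with the mean and SD of each group of 5 as a black bar. Filled points belong to the set with higher pseudogene levels: Gm10222 is at 9.25 CPM or more in every filled and under 5 CPM in every open point, and for Fndc5 and Crim1 filled and open water libraries are mixed. The sets were read from pseudogene levels.

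The matrix that lysyl oxidases cross-link was described gene group by gene group. For comparison, 6.88% of all genes had an unadjusted p under 0.05 for the difference, 3.55% positive and 3.33% negative. With the set term that share was 5.64%. Eln, elastin (ENSMUSG00000029675, chr5:134702593-134747323, minus strand), was 27064, 27383, 28446, 24744 and 25271 CPM in ascending water and 18671, 20972, 20648, 20093 and 19658 CPM in ascending BAPN libraries. In the descending aorta it was 41423, 45971, 51984, 51786 and 48204 CPM under water and 39101, 44694, 43714, 42641 and 33610 CPM under BAPN. The ascending groups did not overlap and the descending groups did. The effects were -0.41 (SE 0.07, adjusted p = 0.000303) and -0.23 (SE 0.07, adjusted p = 0.0247), and the latter call was lost without descending water 3 or 4 or descending BAPN 1 or 5 (adjusted p up to 0.0786). The difference was 0.18 (interval -0.02 to 0.37, adjusted p = 0.757) and turned to -0.03 with the set term (interval -0.25 to 0.19).

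Of 18 elastic fibre genes 2 (11.1%, beside 6.88% of all genes) had an unadjusted p under 0.05 for the difference, both positive: Ltbp3, a latent TGF-beta binding protein (0.16, SE 0.06, and 0.06 with the set term), and Efemp1, fibulin-3 (0.46, SE 0.19). The median was 0.081 and became -0.035 with the set term. Of 10 fibrillar collagens 3 (30%) were positive at that threshold and 0 negative, among them Col11a1, a minor chain of cartilage-type fibrils (0.83, SE 0.30), and Col1a1, a chain of type I collagen (0.21, SE 0.08, and 0.11 with the set term). Col11a1 was scarce in the descending aorta, at 1.42 to 1.96 CPM under water and 1.32 to 2.92 CPM under BAPN. Over all 10 fibrillar collagens 9 differences were positive and 1 negative, from -3.302 to 0.831. Their median effect was -0.235 in the ascending and -0.071 in the descending aorta, and the median difference of 0.154 became 0.072 with the set term, where 1 of the 10 was under the threshold. Col3a1, the type III chain, which was added after its values were seen, had effects of -0.27 and -0.16 (difference 0.11, interval -0.02 to 0.24). Of 24 collagen processing genes 7 (29.2%) were positive and 0 negative (median 0.043, and 0.024 with the set term). They included the collagen-binding glycoprotein Sparc, which fell by 0.32 and by 0.17 (difference 0.15, SE 0.05, unadjusted p = 0.0071), the prolyl hydroxylase P3h2 (0.34), the procollagen protease Adamts2 (0.15) and the hydroxylase partner Crtap (0.15). With the set term 0 of the 24 were under the unadjusted threshold, and the differences were 0.08 for Sparc, 0.21 for P3h2, 0.07 for Adamts2 and 0.06 for Crtap.

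The basement membrane underlies the endothelium and wraps each smooth muscle cell. Of 21 of its genes tested, 20 had a positive and 1 a negative difference, 7 (33.3%, beside 6.88% of all genes) were at an unadjusted p under 0.05, and all 7 of those were positive. The median difference was 0.113, and 0.089 with the set term, beside 0.007 over all genes, and 0 members were called by the adjusted test. Under the set term 3 of the 21 were at an unadjusted p under 0.05, beside 5.64% of all genes. In the ascending aorta 0 members were called higher and 3 lower, and in the descending aorta 7 higher and 0 lower, which is a difference in calls and not a tested difference of effects. Over all genes 3.44% were called higher and 2.91% lower in the ascending aorta, and 6.18% and 4.54% in the descending aorta. For every basement membrane gene tested the interval of the difference lay inside 1.5-fold.

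Col4a3, a type IV collagen chain (ENSMUSG00000079465, chr1:82586921-82722059, plus strand), had the smallest p of these. It was 84.2, 98.2, 101, 102 and 93.8 CPM in ascending water and 83.2, 69.1, 76.7, 76 and 70.1 CPM in ascending BAPN libraries. In the descending aorta it was 61.7, 61, 62.5, 62 and 63.4 CPM under water and 62.6, 57, 60.9, 60.8 and 58.2 CPM under BAPN. The ascending groups were apart by a narrow margin, and the descending groups overlapped within a span of a few CPM. Col4a3 fell by 0.35 in the ascending aorta (SE 0.05, adjusted p = 8.36e-05), the descending effect was -0.05 (adjusted p = 0.61), and the difference was 0.30 (SE 0.07, interval 0.15 to 0.45, unadjusted p = 0.000484, adjusted p = 0.216), or 0.33 with the set term (adjusted p = 0.803). Col4a4, the chain with which it assembles, had effects of -0.37 and -0.09 (difference 0.28, SE 0.08). Col4a5 (difference 0.24) and Col15a1, a collagen between basement membrane and fibrils (0.32), had differences of the same sign, which were 0.13 and 0.14 with the set term.

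The small leucine-rich proteoglycans, which space collagen fibrils, had 3 of 13 members (23.1%, beside 6.88% of all genes) positive and 0 negative at an unadjusted p under 0.05 (median 0.066), led by biglycan, Bgn (0.20, SE 0.07), and fibromodulin, Fmod (0.31, SE 0.12). Under the set term 0 of the 13 passed that threshold, Bgn was at 0.08 and Fmod at 0.14, and the median was 0.136. Of 31 proteases and inhibitors 3 were positive and 1 negative, or 12.9% of the list (median 0.059, and -0.019 with the set term). The positive ones were the cathepsin Ctsk (effects -0.32 and -0.04, difference 0.28, SE 0.08, unadjusted p = 0.0015), the gelatinase Mmp2 (0.18) and the aggrecanase Adamts5 (0.16). The negative one was Timp4, an inhibitor of metalloproteinases, with effects of 0.86 and 0.46 (difference -0.40, SE 0.19).

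Of 17 matricellular genes, whose products sit in the matrix and signal to cells, 1 (5.88%, beside 6.88% of all genes) passed the unadjusted threshold. It was Ccn3, which restrains growth of smooth muscle (ENSMUSG00000037362, chr15:54745702-54754039, plus strand). Its ascending libraries held 1803, 1779, 1626, 1730 and 1676 CPM under water and 2109, 2331, 2463, 2451 and 2266 CPM under BAPN. Its descending libraries held 606, 578, 540, 590 and 605 CPM under water and 859, 851, 967, 950 and 887 CPM under BAPN. The BAPN libraries lay above the water libraries in both regions, and the ascending aorta held the higher level throughout. Ccn3 rose by 0.43 and by 0.63 (SE 0.05 each), and the difference was 0.20 (SE 0.07, interval 0.06 to 0.34, unadjusted p = 0.00737, adjusted p = 0.483).

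**Figure D4:**
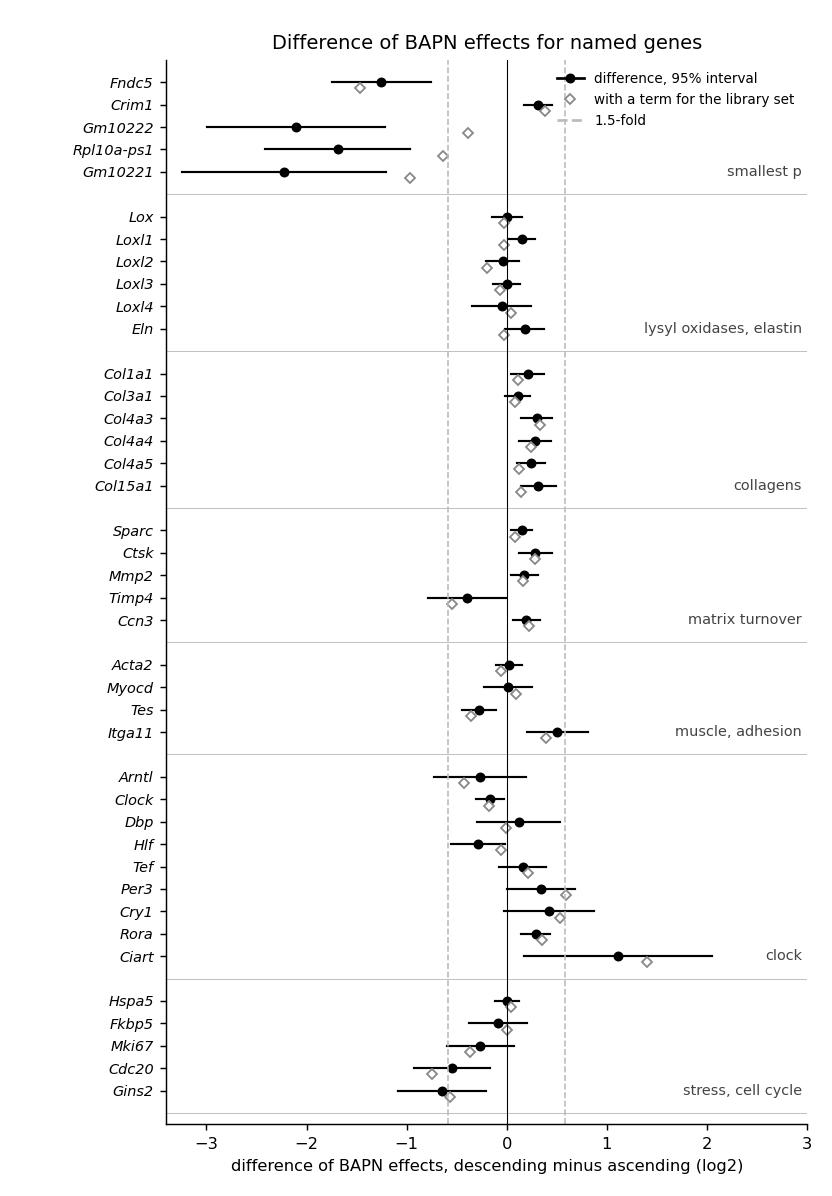
Difference of the BAPN effects (descending minus ascending, log2) for 40 named genes, with the 95% interval from edgeR as a line. Diamonds give the difference with a term for the library set and dashed lines mark 1.5-fold: Lox, Acta2 and Hspa5 sit at 0 with narrow intervals, and the 3 pseudogenes move toward 0 with the set term, which was built from pseudogene levels.

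Smooth muscle pulls on this matrix through its contractile apparatus and its adhesions. Over all genes 3.44% were called higher and 2.91% lower in the ascending aorta, and 6.18% and 4.54% in the descending aorta. Of 30 contractile genes 8 were called higher and 0 lower in each region, and the median difference was -0.022, or -0.106 with the set term. At an unadjusted p under 0.05 the difference was positive for 0 and negative for 1 of the 30 (3.33%, beside 6.88% of all genes). The interval lay inside 1.5-fold for 28 of the 30. With the set term 6 of the 30 had an unadjusted p under 0.05, beside 5.64% of all genes. Of 30 integrin and focal adhesion genes 12 were called higher in the ascending and 16 in the descending aorta and 0 lower in either. Over this list 23 differences were positive and 7 negative (median 0.040, and -0.009 with the set term). At an unadjusted p under 0.05 there were 2 positive and 1 negative, or 10% beside 6.88% of all genes. The difference was positive for Itga11, a collagen receptor chain (effects -0.09 and 0.41, difference 0.50, SE 0.15), and for the adaptor Lims2 (0.18, SE 0.07, and 0.11 with the set term), and negative for Tes, a protein of actin attachments (effects 0.48 and 0.21, difference -0.28, SE 0.08, adjusted p = 0.357).

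YAP and TAZ are coactivators that respond to tension. Of 30 genes of their pathway 4 were called higher in the ascending and 11 in the descending aorta and 0 lower in either. The shares of all genes called higher were 3.44% in the ascending and 6.18% in the descending aorta. For the difference 3 were positive and 1 negative at an unadjusted p under 0.05, or 13.3% beside 6.88% of all genes (median 0.075, and 0.111 with the set term). Crim1, described above, the membrane repair gene Myof (0.20, SE 0.06) and Asap1, which acts at focal adhesions (0.21, SE 0.08), were on the positive side. Of 36 TGF-beta pathway genes 2 were positive and 0 negative (median 0.033, and 0.003 with the set term). That share, 5.56%, was below the 6.88% of all genes. The 2 were the receptors Tgfbr2 (effects -0.07 and 0.07, difference 0.14, SE 0.05) and Tgfbr1 (0.18 and 0.37, difference 0.18, SE 0.08). For 35 of the 36 the interval stayed within 1.5-fold. Of 30 genes of endoplasmic reticulum stress 0 were under the unadjusted threshold (median -0.001, and -0.023 with the set term). Manf, a protective factor secreted under that stress, had effects of 0.32 and 0.16 (difference -0.15, interval -0.34 to 0.04, and -0.04 with the set term).

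Of 33 cell cycle genes tested, 1 was called higher and 14 lower in the ascending and 0 higher and 26 lower in the descending aorta, with median effects of -0.573 and -0.814. Over all genes 2.91% were called lower in the ascending and 4.54% in the descending aorta. The difference was positive for 6 of the 33 and negative for 27, with a median of -0.189 (-0.268 with the set term). In all, 1 positive and 5 negative members had an unadjusted p under 0.05 (18.2%, beside 6.88% of all genes). The interval lay inside 1.5-fold for 10 of 33, and 0 were called by the adjusted test.

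Cdc20, an activator of the complex that ends mitosis, was 5.53, 6.11, 7.58, 4.99 and 6.13 CPM in ascending water and 3.51, 3.6, 4.28, 3.48 and 4.73 CPM in ascending BAPN libraries. It was 9.62, 8.38, 9.03, 9.13 and 6.75 CPM in descending water and 4.43, 3.64, 3.75, 3.50 and 3.62 CPM in descending BAPN libraries. The treatments did not overlap in either region, and the water level was higher in the descending aorta while the BAPN levels met. Cdc20 fell by 0.64 and by 1.18, the former not called inside the set, with a difference of -0.55 (SE 0.18, interval -0.93 to -0.17, unadjusted p = 0.00665, adjusted p = 0.472). Gins2 (-0.64, SE 0.21) and Pcna (-0.16, SE 0.07, and -0.04 with the set term), both of the replication fork, and the nucleotide enzyme Tyms (-0.43, SE 0.15) had differences of the same sign. Mki67, the proliferation antigen, added after its values were seen, fell by 0.59 and by 0.86 (difference -0.26, interval -0.60 to 0.07), and its fall in the ascending aorta was not called inside the set.

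Of 24 interferon response genes 3 (12.5%, beside 6.88% of all genes) were negative at an unadjusted p under 0.05, with Isg15, a ubiquitin-like antiviral protein (-0.67, SE 0.28), and its protease Usp18 (-0.59, SE 0.27) among them. Isg15 and Usp18 were scarce, averaging 4.1 and 2.6 CPM over the 20 libraries. Over the whole interferon list 11 differences were positive and 13 negative, from -0.941 to 0.749. The list's median was -0.017 and became 0.152 with the set term. Of 23 genes of oxidative phosphorylation 2 (8.7%) were negative: Uqcrc2, of complex III (-0.23, SE 0.09, and -0.04 with the set term), and Ndufb5, of complex I (-0.16, SE 0.07). That list's median was -0.107, and -0.038 with the set term, where 0 of the 23 passed, and every interval lay inside 1.5-fold.

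**Figure D5:**
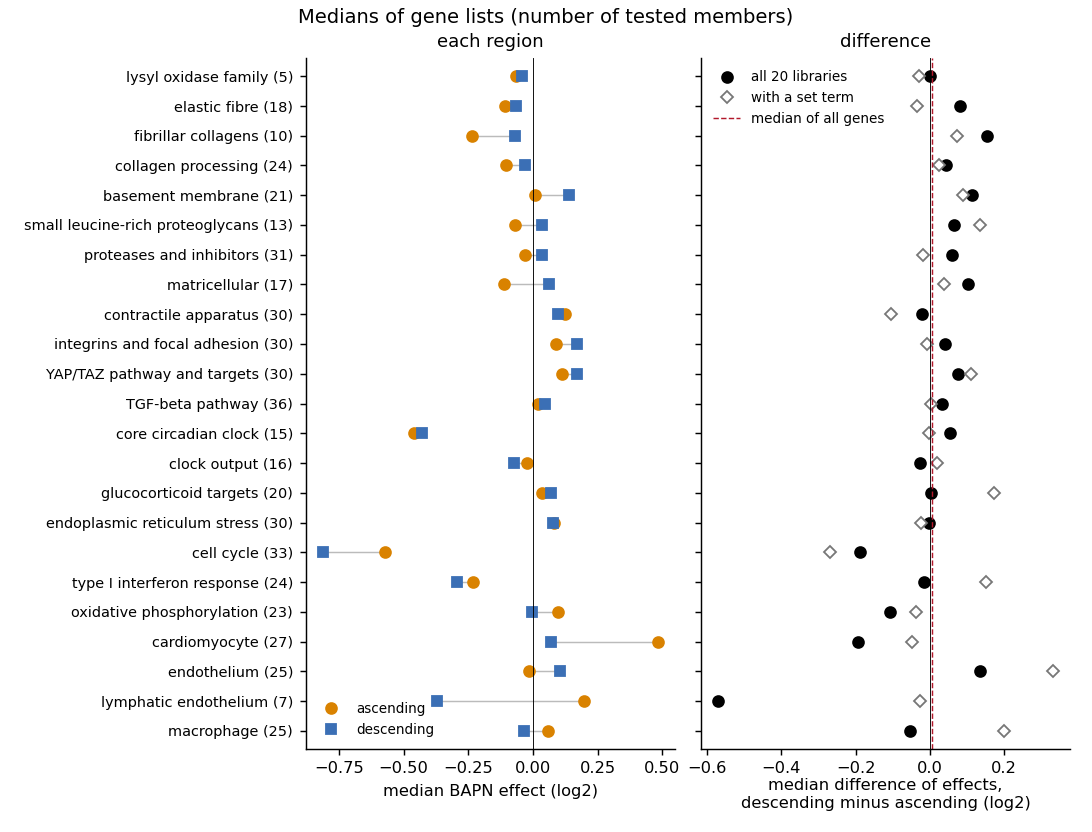
Median log2 effect of BAPN in each region (left) and median difference of effects, descending minus ascending (right), for 23 gene lists, with the number of tested members after each name. The clock and endoplasmic reticulum stress lists have almost equal medians in the regions, while the heart muscle and lymphatic lists are apart in the left panel and move toward 0 with the set term in the right panel.

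A dissected aorta can also carry heart muscle, lymphatics and immune cells. The cardiomyocyte list had 0 positive and 6 negative of 27 (22.2%, beside 6.88% of all genes) at an unadjusted p under 0.05, including creatine kinase Ckm (-1.08, SE 0.31), troponin I Tnni3 (-1.13, SE 0.41), the fatty acid carrier Fabp3 (-0.44, SE 0.18) and actinin Actn2 (-0.64, SE 0.27). Over all 27 members 8 differences were positive and 19 negative, from -1.949 to 2.319. The list's summed level was 861.5 to 1832 CPM in ascending water, 1151 to 2116 in ascending BAPN, 233.7 to 306.5 in descending water and 163.6 to 183.3 in descending BAPN libraries. The list's median difference of -0.195 was -0.047 with the set term, where 1 of the 27 was under the threshold, beside 5.64% of all genes. The gene Pln, a regulator of the calcium pump, is on this list and on the contractile list, and the part of heart muscle RNA in the results for contractile genes was not tested.

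The lymphatic endothelial list had 7 tested members, all negative, of which 2 (28.6%, beside 6.88% of all genes), the adhesive glycoprotein Mmrn1 (-0.81, SE 0.26, and -0.22 with the set term) and the guidance protein Reln (-0.95, SE 0.31, and -0.47 with the set term), were under the unadjusted threshold. The median of -0.572 became -0.027 with the set term, where 1 of the 7 was under the threshold, and -0.28 or -0.276 without descending BAPN 5 or descending water 1. Its summed level was 121.0 to 171.9 CPM in ascending and 50.2 to 66.3 CPM in descending libraries. The endothelial list leaned the other way, with 3 of 25 (12%, beside 6.88% of all genes) positive and 0 negative at that threshold: the transcription factors Sox18 (0.36, SE 0.14) and Sox17 (0.33, SE 0.14) and the tight junction protein Cldn5 (0.24, SE 0.10). Over the whole endothelial list 19 differences were positive and 6 negative, from -0.360 to 0.357. Its median of 0.136 became 0.333 with the set term, where 9 of 25 were under the threshold, beside 5.64% of all genes. The summed endothelial level overlapped among all 4 groups, from 1854 to 2916 CPM. Of 25 macrophage genes 0 were under the unadjusted threshold (median -0.053), against 3 with the set term (median 0.199). The shares over all genes were 6.88%, and 5.64% with the set term. The macrophage differences were positive for 9 and negative for 16. The median effects were 0.059 in the ascending and -0.033 in the descending aorta. Over all genes 3.44% were called higher in the ascending and 6.18% in the descending aorta. In each region 2 of the 25 macrophage genes were called higher and 0 lower. Among the called members was Mertk, a receptor for dying cells, which rose by 0.29 and by 0.38 (difference 0.09, interval -0.04 to 0.22).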

How the data were processed

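RNA of 20 aortic libraries was made with a NEBNext Ultra RNA kit, per the labels' protocols, and the authors deposited whole-number counts per gene. fastp, STAR 2.5, HTSeq 0.6.1 and the mm10 build are named in the submitters' processing notes. Their settings, the annotation and the strand option are not given in the sources used here, so antisense or overlapping genes cannot be told apart. The 20 per-library count files equalled the deposited table, of whose 54532 genes 54409 were matched to GENCODE M21 (GRCm38) for symbols and coordinates, and 123 kept their identifiers. Levels are CPM after TMM scaling.

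Genes were kept by filterByExpr (minimum count 10, minimum total 15), which left 15543. edgeR 4.0.16 in R 4.3.3 fitted 4 group means by quasi-likelihood (16 residual degrees of freedom), and p-values were adjusted over all genes by Benjamini-Hochberg, with calls at an adjusted p under 0.05. SE and 95% intervals are Wald values. Library sets were read from the leading axis of a principal component analysis of 33 pseudogenes (symbols with -ps) averaging 2 CPM or more, where scores left a gap of 1.41 between the sets and at most 0.331 inside them.

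Genes were named by rule: the 5 with the smallest p where none is called, up to 4 of smallest p in each described list, the lysyl oxidases and Eln. Arntl, Dbp, Cry1, Tef, Hlf, Per3 and Fkbp5 were named from the 8 largest shared rises and the 8 largest shared falls. The other genes among these, not all of them clock genes, are not described. Acta2, Myocd, Hspa5, Mki67, Col3a1 and Rasl10b were named singly. All of these named genes were chosen after their values were seen. The members and lists were chosen with earlier results of these data known. Of 45 lists (986 of 987 entries matched) 23 are described. Alternatives were other scalings and filters, limma 3.58.1, DESeq2 1.42.0, replicate blocks, set terms and each library left out. The script was tested on simulated data. Figures were drawn with matplotlib 3.10.9. The result for 1 gene of the lists is not reported here.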

Additional observations from a re-analysis of the deposited data

Results flagged for a closer look

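In 3 of 72 groups of 5 libraries (18 genes shown by library) 1 library lay apart from the other 4 by more than Dixon's limit of 0.71 of the group's range, a gap that chance gives in about 1 of 20 groups. Cry1 was 5.07 CPM in descending water 1, above the 4.06 to 4.35 CPM of the others. Ciart was 1.2 CPM in ascending water 3, below the 3.41 to 3.89 CPM of the others. Cdc20 was 4.43 CPM in descending BAPN 1, above the 3.5 to 3.75 CPM of the others.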

How the results depend on the processing

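The difference of effects gave 0 calls with other scaling factors, a 1 CPM filter, limma-voom, the set term and inside the sets, but 41 calls without a filter on low counts, 14 with DESeq2, and 0 to 16 on leaving out a library. The labels do not say that a replicate number marks a shared animal, and pairing was taken to need a correlation above 0.1 in every pair. Same-numbered libraries of the regions passed 0.1 in 8 of 10 pairs (not water 1, at 0.037, or water 4, at -0.039), and 7 of 10, among them all 5 BAPN pairs, correlated best with their own number, a hint from the data that the regions may share animals. A replicate block gave 0 calls (smallest adjusted p 0.0839), and a replicate block within treatment gave 20, of which 10 were pseudogenes and others were Fndc5, Crim1, Rasl10b and Tnni3 (smallest adjusted p 0.00191). The ascending calls fell to 542 with the set term and 373 inside the sets, and ran from 719 to 1094 on leaving out a library. The descending calls were 704 inside the sets and 1240 to 1684 on leaving out a library. Inside the sets fewer libraries enter, and otherwise the cause was not tested. A replicate block gave 1 shared call of opposite sign.

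Among the 72 named genes the sign of the difference turned under 1 or more settings, apart from leaving out a library, for Loxl1, Loxl3, Loxl4, Lox, Eln, Acta2, Dbp and Hspa5, of which Eln, Loxl1 and Dbp had differences of 0.18, 0.15 and 0.12 from all libraries. Under the set term and inside the sets, respectively, it was -0.0247 and -0.0246 for Loxl1, 0.0426 and 0.0427 for Loxl4, -0.0276 and -0.0277 for Lox, -0.0267 and -0.0265 for Eln, -0.0529 and -0.0528 for Acta2, and -0.0043 and -0.0028 for Dbp. Upper-quartile scaling gave -0.0081 for Lox and -0.01 for Hspa5, no filter 0.0106 for Loxl3, and Hspa5 was -0.0005 with relative log expression factors and -0.0006 with DESeq2. On leaving out a library the range crossed 0 for Acta2 (-0.0112 to 0.0444), Dbp (-0.0231 to 0.2356), Hspa5 (-0.0199 to 0.0275), Lox (-0.0278 to 0.0303), Loxl2 (-0.0789 to 0.0006), Loxl3 (-0.0208 to 0.0397), Loxl4 (-0.1193 to 0.0204) and Myocd (-0.0625 to 0.101). Depth limits scarce transcripts most: intervals inside 1.5-fold were 92.6% at 5 CPM or more and 67.8% over all genes.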
